A study of Mus musculus with 5 samples.

Results

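Deep intragenic PU.1 sites are the sites of a PU.1 binding list that lay inside a protein-coding gene and more than 10 kb from the nearest end of any protein-coding gene. They were chosen by position alone, from the summits on chromosomes 1 to 19 and the gene spans of a RefSeq table of GRCm38.p6, whose coordinates are those of mm10. Of 10920 sites on these chromosomes (11111 in the whole list), 3259 met the rule, in 1818 host genes.

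The list comes from ChIP-seq, the sequencing of DNA recovered by chromatin immunoprecipitation, with the PU.1 antibody T-21. The cells were AML-246, a C57BL/6 mouse acute myeloid leukaemia that is p53-/- and carries a hairpin against PU.1 (shPU.1), and they were taken from the spleens of leukaemic recipient mice. PU.1 high cells came from mice given doxycycline (Dox) for 2 days, which shuts down the GFP-linked hairpin and lets endogenous PU.1 return (3 libraries), and PU.1 low cells came from untreated mice (2 libraries). All libraries share the p53-/- genotype, the hairpin construct and the single leukaemia, and the labels call those of a group technical replicates. The study asked where PU.1 binding is gained when PU.1 is acutely restored. The deposited data are 1 list of summits whose name sets high against low, with a −log10 score per site from the authors' peak caller. The scores may be p or q values, which no source used here settles, and a score is not a fold change of binding. There are no values per library and read depth is unknown, so replicate error cannot be given and nothing below tests PU.1 high against PU.1 low. Intervals are 95% intervals that cover counting error only and treat sites as independent, although neighbouring sites cluster.

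PU.1, encoded by Spi1, is an ETS-family factor needed for myeloid and B cell development, and its low activity contributes to acute myeloid leukaemia in mice. ETS factors contact the DNA core GGAA, read as TTCC on the other strand. In macrophages and B cells much PU.1 binding lies away from promoters, in introns and between genes, at sites that can act as enhancers. A site inside a gene need not act on that gene, and host genes are named here by position alone. Exons and introns are not separated in the gene table used.

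Sequence could be read for the few deep sites whose surroundings fall in a RefSeq transcript start window, 250 bases before to 50 bases after a start. Such sites lie at an internal start of their host or at a start of another transcript within it. For 36 deep sites the 61 bases centred on the summit were fully inside such a window. The 10 with the highest scores, shown here in that order, give a view of the DNA under a summit. They are on GRCm38.p6 (mm10), 5′ to 3′ on the strand of the start named, from RefSeq, with GGAA and TTCC in capitals.
Galnt9 site, chr5:110603401-110603461, plus strand: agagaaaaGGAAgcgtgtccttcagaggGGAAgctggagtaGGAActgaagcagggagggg
Itgad site, start of Gm39091, chr7:128184127-128184187, minus strand: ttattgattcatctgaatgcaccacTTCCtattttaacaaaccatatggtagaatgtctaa
Lima1 site, chr15:99820122-99820182, minus strand: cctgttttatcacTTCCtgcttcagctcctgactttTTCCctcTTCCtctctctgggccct
Arhgap27 site, start of Arhgap27os3, chr11:103344694-103344754, plus strand: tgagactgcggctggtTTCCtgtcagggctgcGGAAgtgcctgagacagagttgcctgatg
Cd36 site, chr5:17836036-17836096, minus strand: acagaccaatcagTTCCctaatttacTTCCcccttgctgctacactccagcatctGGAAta
Atf7ip site, start of LOC108169175, chr6:136553957-136554017, plus strand: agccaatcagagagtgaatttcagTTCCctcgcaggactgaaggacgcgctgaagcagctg
Tmcc3 site, chr10:94576065-94576125, plus strand: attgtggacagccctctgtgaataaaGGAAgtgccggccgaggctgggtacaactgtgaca
Sema4d site, chr13:51756794-51756854, minus strand: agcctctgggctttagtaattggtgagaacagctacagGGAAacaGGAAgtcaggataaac
Nlrp1b site, chr11:71230798-71230858, minus strand: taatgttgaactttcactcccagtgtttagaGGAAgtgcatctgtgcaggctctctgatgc
Rps6ka1 site, chr4:133874742-133874802, minus strand: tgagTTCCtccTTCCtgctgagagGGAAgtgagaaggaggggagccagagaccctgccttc

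The Galnt9 site, with a score of 31.8, has its summit 74 bases from the annotated start, and a GGAA lies in the centre of its window. All 36 windows held GGAA on either strand, a share of 100% (Wilson interval 90.4% to 100%), at a median of 3.5 bases between the middle of the motif and the summit. At the same offsets from a start, 49.7% of all 31396 start windows held it. The longer GGAAGT, which contains GGAA, was in 19 of the 36 windows, 52.8% (37.01% to 68.01%), against 5.73% of all start windows. GAGGAA, which also contains GGAA, was in 13 windows, 36.1%, against 6.11%. Other sites of the list that fell in start windows had the motifs in like shares: 433 of 451 held GGAA, 210 held GGAAGT and 136 held GAGGAA. A match describes these letters and is not a measured contact of PU.1. The difference between the windows of deep sites and all start windows was not tested.

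Bases of chromosomes 1 to 19 were counted between the outermost gene ends or sites of each. Deep sites took 29.8% of the sites (28.99% to 30.7%) on 28.9% of these bases, 702 of 2430 Mb. Their density was 4.64 per Mb of eligible gene interior (4.48 to 4.80), close to the 4.49 per Mb of all sites. Interior bases 1 to 10 kb from a gene end held 7.50 sites per Mb and bases within 1 kb of an end 16.7 per Mb. Bases outside genes and more than 10 kb away held 2.67 per Mb, so that deep gene interiors stood between the surroundings of gene ends and the remote intergenic space. The median score of deep sites was 8.72 (8.46 to 8.78), with quartiles of 5.82 and 12.02 and a range of 1.32 to 37.6, against a median of 8.56 for all sites. Sites within 1 kb of a gene end had the lowest median of the 5 position classes, 7.70. A score of at least 10 was reached by 1250 deep sites, 38.4% (36.7% to 40.04%), beside 37.5% of all sites. At least 20 was reached by 130 deep sites, 3.99%, beside 3.93% of all sites. The deep and the full list thus had scores of like size, and their difference was not tested.

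**Figure D1:**
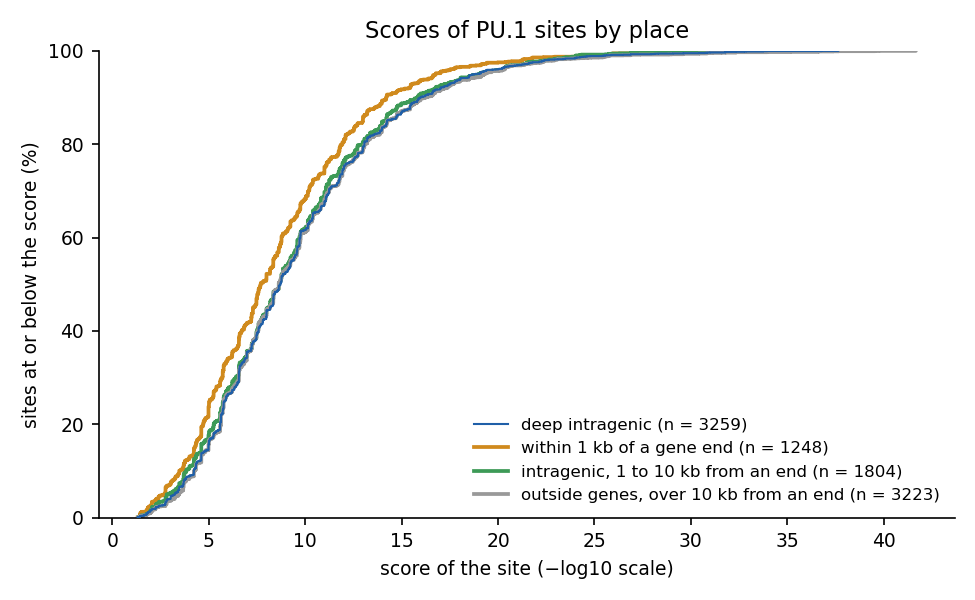
Share of sites (%) at or below each −log10 score, as 1 line for deep intragenic sites and 1 line for each of 3 other position classes. The lines of deep sites (median 8.72) and of sites outside genes over 10 kb from an end (8.64) run close together, and the class within 1 kb of a gene end lies to their left (7.70).

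Density differed with the length of the gene interior and with the distance from a gene end. Genes whose eligible interior was at most 10 kb held 7.59 deep sites per Mb of it (6.05 to 9.39), and genes with 100 to 200 kb held 6.30. It was 3.94 per Mb (3.66 to 4.24) at 200 to 500 kb and 1.46 per Mb (1.28 to 1.65) above 500 kb. The share of genes with a site was 3.31% in the shortest class, 46.7% at 200 to 500 kb and 41.7% above 500 kb. By distance from the nearest gene end, density was 6.38 per Mb at 10 to 20 kb, 5.88 at 20 to 50 kb, 4.88 at 50 to 100 kb and 1.92 beyond 100 kb. Bases beyond 100 kb from an end exist only in genes longer than 200 kb. These values therefore do not separate distance from an end from gene length, and density by distance within a length class is not given here. The median distance was 32.7 kb, with quartiles of 18.5 and 62.9 kb. The share with a score of at least 20 was 2.89% at 10 to 20 kb, 3.20% at 20 to 50 kb, 6.52% at 50 to 100 kb and 4.65% beyond 100 kb. The deepest site lay 1085 kb from a gene end, in Cntnap2, a neuronal cell adhesion gene, with a score of 13.0. The next were in Dlg2, a synaptic scaffold, at 732 kb with a score of 11.1, and in Fhit, a fragile-site gene, at 722 kb with a score of 11.2.

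For the 7454 eligible genes with a known strand, none of them on chromosome 18, density was also set against the direction of transcription. At 10 to 20 kb from the 5′ end it was 6.93 per Mb (6.30 to 7.61), against 5.90 per Mb (5.31 to 6.53) at that distance from the 3′ end. Beyond 200 kb the values were 2.16 from the 5′ end and 2.29 from the 3′ end, and at 100 to 200 kb they were 4.02 from the 5′ end and 4.99 from the 3′ end. In 5 parts counted from the start of the gene, density was 5.19, 5.04, 4.92, 4.66 and 3.80 per Mb. The last part (3.38 to 4.25) lay lowest. The parts were not equal in interior, since the first and the last each held 14.4% of it, less than any part between them. Density by part is not given here within a length class, so these values do not separate position in the gene from gene length. The orders of density are descriptions and were not tested. Just inside the limit of 10 kb were sites in Nrip1 (10002 bases, score 9.71), Hk2 (10013 bases, score 4.29) and Chmp2b (10015 bases, score 15.98). Just outside were sites in Gpt2 (9991 bases, score 5.59), Rftn2 (9989 bases, score 7.80) and Gask1b (9987 bases, score 10.1).

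**Figure D2:**
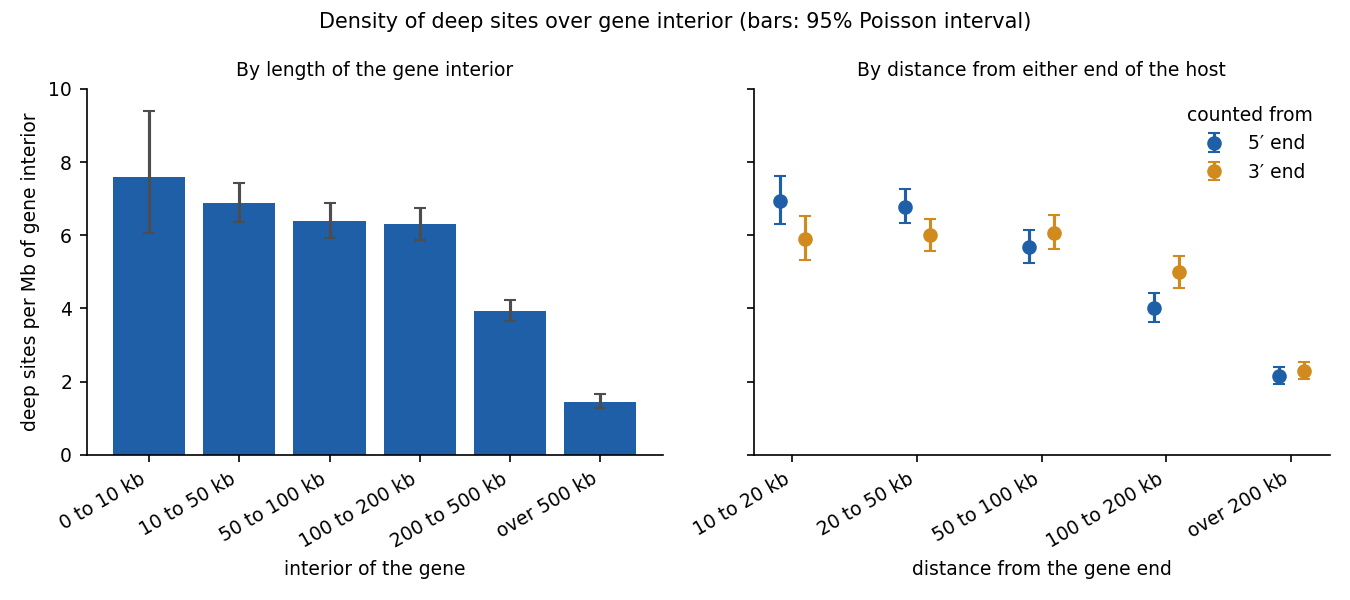
Deep sites per Mb of gene interior by the length of that interior (left, bars) and, for genes with a known strand, by distance from the 5′ and from the 3′ end of the host (right, points), with exact Poisson 95% intervals. Density is 1.46 per Mb where the interior is over 500 kb, and beyond 200 kb it is 2.16 per Mb from the 5′ end and 2.29 from the 3′ end.

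The highest-scoring deep site had a score of 37.6. It lay in Cmip, which encodes an adaptor linked to c-Maf induction, with its summit at 117362138 on chromosome 8, 99.4 kb from the nearest gene end. Dscam, a neuronal adhesion gene, had the next at 36.8 (chromosome 16, 97105442). Mycbp2, a ubiquitin ligase gene, had a site of 33.7 (chromosome 14, 103186844). Babam2, whose product belongs to a BRCA1-containing complex, also had a site of 33.7 (chromosome 5, 31758939). Ttll5, a tubulin glutamylase gene, had a site of 32.8, 73.6 kb from the nearest gene end. Ildr1, a receptor gene of tricellular junctions, had one of 32.7 and Pid1, an adaptor gene, one of 32.3. Arhgap39 (a GTPase-activating protein), Exoc6 (an exocyst subunit) and Osbpl3 (a lipid-transfer protein) tied at 31.8. Cmip held 8 deep sites in all, Dscam 5, Babam2 10 and Pid1 9.

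Of 20665 protein-coding genes, 9425 had interior bases that could hold a deep site, and 1818 of these did, 19.3%. A single site was found in 1120 hosts and a pair in 340 hosts, while 358 hosts had 3 or more, 3.80% of the eligible genes. These 358 held 1469 sites, 45.1% of the deep sites. Hosts had a median span of 106 kb, against 42.8 kb for the 7607 eligible genes with no deep site. Length thus goes with being a host, and counts per gene are given with the interior they fell in.

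Arhgap26, a GTPase-activating protein fused to KMT2A in some leukaemias, had the most, 14 sites scoring 2.95 to 15.002 in 654 kb of interior. Its first place depended on the settings, since it had 8 sites at a limit of 20 kb and 9 when each site went to its shortest host, against 12 for Foxp1 in both, and 5 at a score of at least 10, against 7 for Tg. Foxp1, a forkhead factor of B cell and monocyte development, had 12 over 577 kb. Their scores, in order of distance from its 5′ end, ran 7.0 at 25 kb, 8.0 at 165 kb, 8.0 at 222 kb, 13.0 at 227 kb and 20.2 at 335 kb. The other 7 lay between 426 and 563 kb and scored 3.5 to 14.0. Foxp1 thus has most of its sites in the 3′ part of its span. Lpp, a focal adhesion LIM protein gene, had 11 sites (2.06 to 20.8) and Sgms1, a sphingomyelin synthase gene, also had 11 (2.06 to 19.1). The count of 10 was shared by Babam2 (2.75 to 33.7), Tg (6.90 to 22.3), Chn2 (3.03 to 16.6), Entpd1 (1.82 to 16.4) and Asap1 (4.62 to 14.3). Tg encodes thyroglobulin, Chn2 a Rac GTPase-activating protein, Entpd1 the ectonucleotidase CD39 and Asap1 an Arf GTPase-activating protein. Pid1 had 9 (3.41 to 32.3). In Babam2 the site of 33.7, at 60.96 kb from the 5′ end, stood over the others, which scored at most 14.3. In Lpp, 6 of the 11 lay between 182.5 and 232.4 kb from the 5′ end, among them the highest, 20.8. In Tg, 5 of the 10 scored 17.2, 18.5, 19.1, 20.1 and 22.3, and no site there scored under 6.90. Tg and Entpd1 had theirs in 121 and 109 kb of interior, far less than Foxp1 had.

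**Figure D3:**
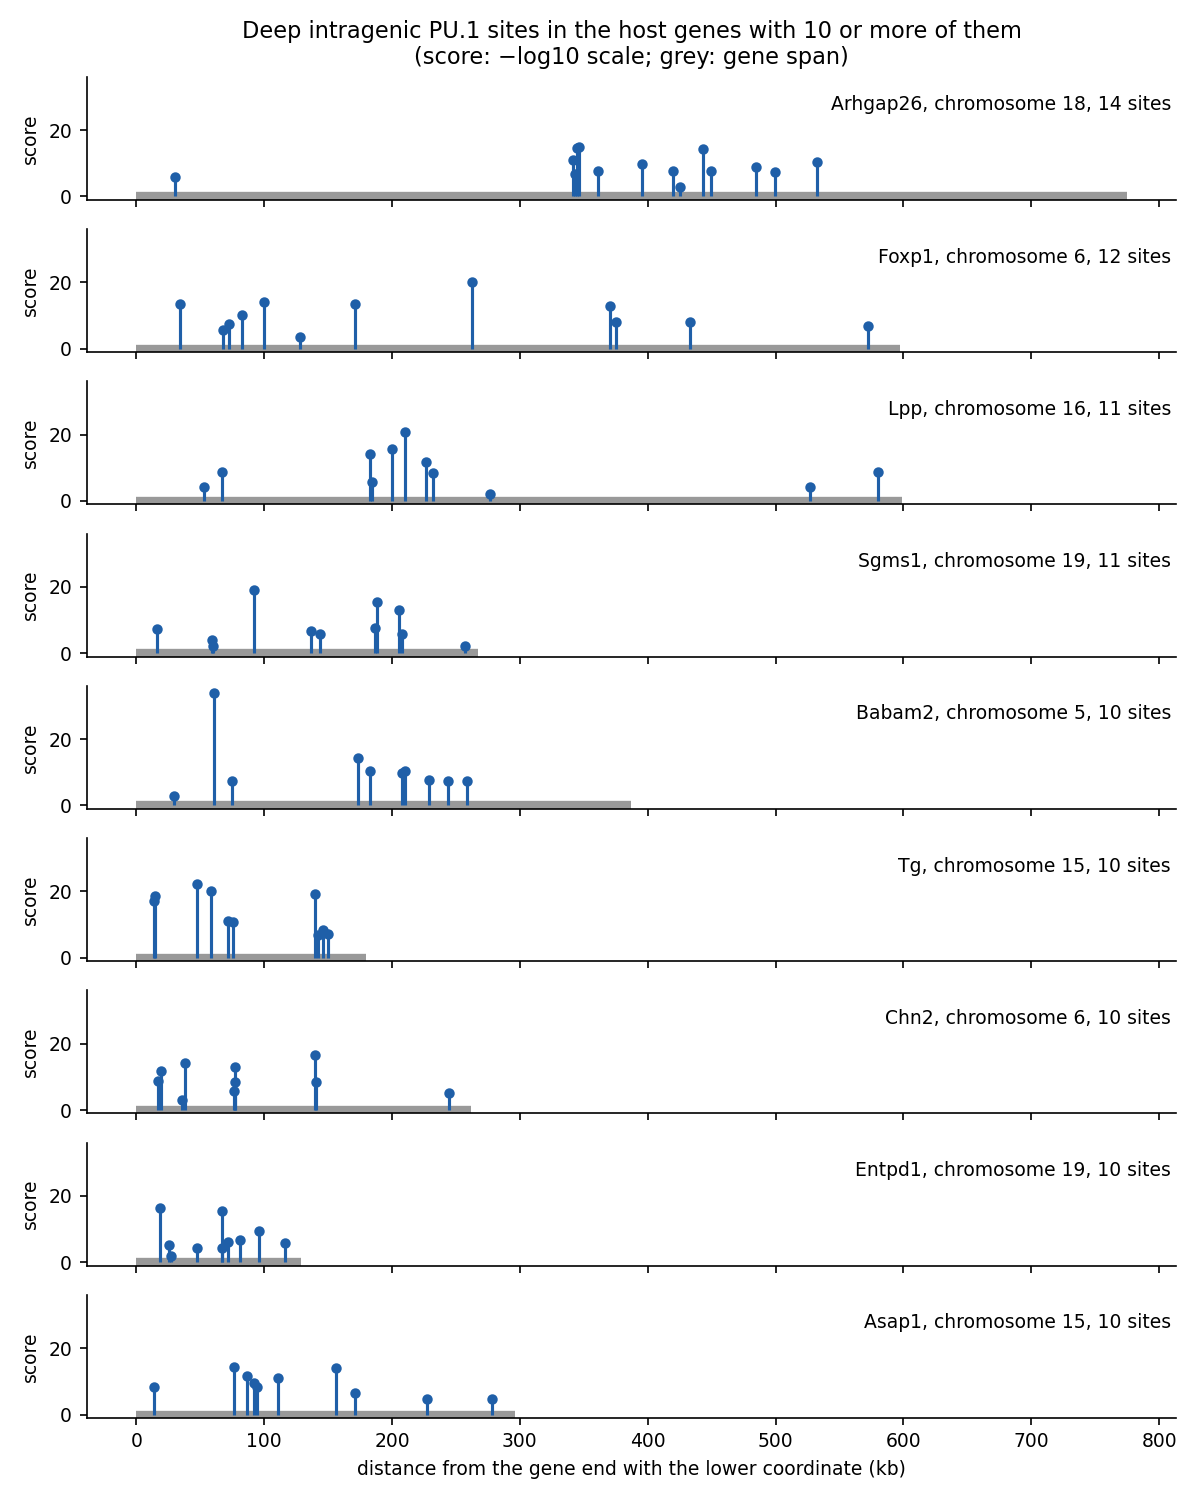
Deep sites along the 9 host genes with 10 or more of them, as −log10 score against distance in kb from the gene end with the lower coordinate, with the gene span in grey. The single high site of Babam2 (33.7) stands over its other 9, and Foxp1, which is read from right to left, has 7 of its 12 sites at the far left.

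Per base the order was another. Among hosts with 3 or more sites the densest was Ildr1, 23.4 sites per 100 kb of interior. It was followed by Asb2, a ubiquitin ligase subunit gene, at 20.2 with scores of 7.9997 to 16.7, and Cd101, an immunoglobulin-superfamily receptor of myeloid cells, at 17.3 with scores of 4.39 to 16.3. Stx7, an endosomal SNARE gene, had 15.3 (scores 7.20 to 14.1) and Tmem236 14.6 (3.24 to 16.2). These 5 have short interiors and 3 or 4 sites each. Among the longest genes, Cntnap2 had 1 site in a span of 2241 kb. Ptprd (2271 kb) and Lsamp (2197 kb), both neuronal adhesion genes, had none.

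**Figure D4:**
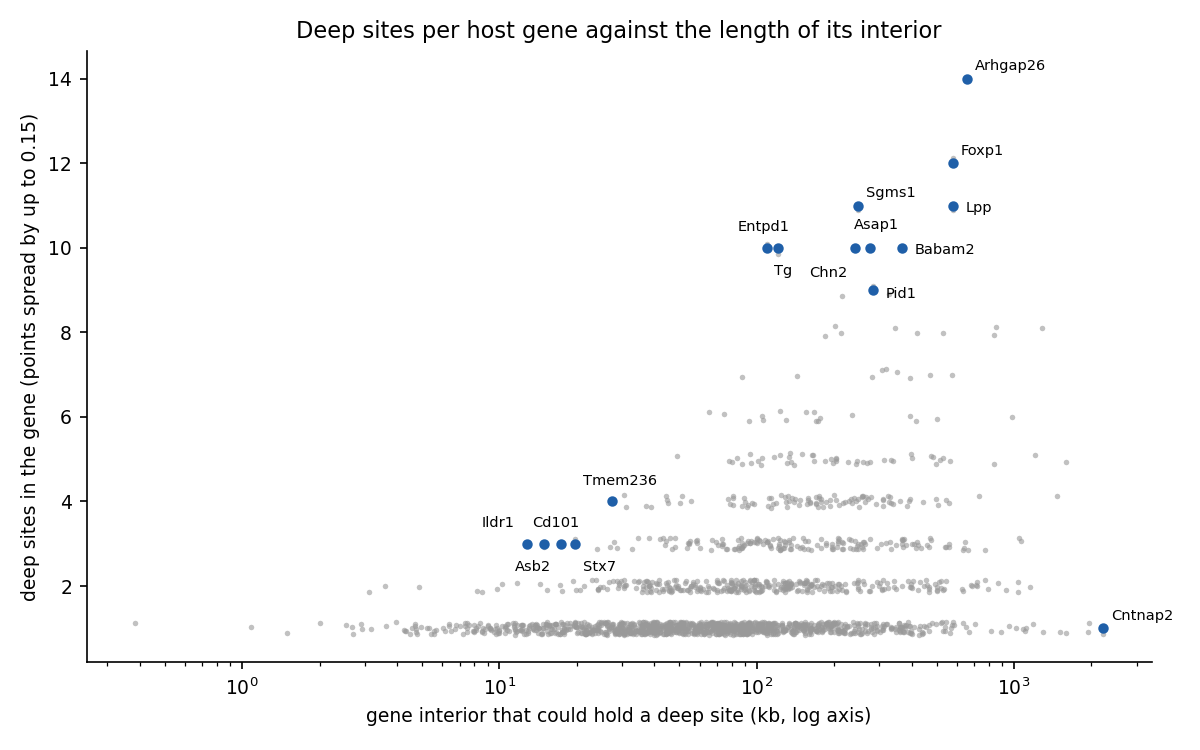
Number of deep sites in each host gene against the length of the interior that could hold one (kb, log axis), with points spread vertically for visibility. Named hosts are in blue, with Arhgap26 at 14 sites and Cntnap2 at 1 site in the longest interior of a host.

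Genes were then read by role, in 11 lists chosen with earlier results of these data known. Each list is given by its genes with a site among those with eligible interior, beside 1818 of 9425 for all genes, and by its density beside 4.64 per Mb. Since density is lower in long genes, each count is also set beside the count that the density of the genes' own length classes would give, called the length-matched count. Receptors and adhesion molecules of monocytes and macrophages had the highest density, 19.1 per Mb (13.1 to 26.98), with 32 sites in 16 of 36 genes. That was 2.95 times the length-matched count. Plxnc1, a semaphorin receptor gene, had 5 sites (6.41 to 21.6). Ptprc, which encodes the leukocyte phosphatase CD45, had sites of 16.6, 21.1 and 11.0 at 22, 38 and 50 kb from its 5′ end. Il1r1, the receptor of interleukin-1, had 3 (8.98 to 18.5), and the scavenger receptor genes Cd36 and Msr1 had 3 (12.7 to 14.7) and 2 (10.9 to 14.2). Mrc1, the mannose receptor, had sites of 4.65 and 15.5. Tgfbr2 had the longest interior in the list without a site, 67.7 kb.

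Innate immune signalling genes had 28 sites in 13 of 32 genes, 16.6 per Mb (11.0 to 23.9) and 2.78 times the length-matched count. Their highest scores were in Map3k7, which encodes the kinase TAK1 (22.4), Nod2, a sensor of bacterial cell walls (14.96), and Hivep1, a zinc finger factor that binds κB-like sites (14.5), with 1 site each. Regulators of small GTPases had 114 sites in 37 of 49 genes, 11.97 per Mb (9.87 to 14.4) and 2.90 times the length-matched count. Rapgef2, a Rap exchange factor, reached 25.5, Dock4 22.4 and Elmo1, a partner of Dock proteins in engulfment, 20.2 with 5 sites. Rin3, a Rab5 exchange factor, had 7 sites (6.59 to 15.7). Rasal2, with 257 kb, had none.

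Kinases, phosphatases and lipid signalling genes had 104 sites in 35 of 51 genes, 11.5 per Mb (9.36 to 13.9) and 2.75 times the length-matched count. Inpp5d, which encodes the phosphatase SHIP1, had sites of 1.4 and 23.5 only 0.825 kb apart. Map4k4 had 6 sites up to 22.6 and Prkce, a protein kinase C gene, 7 up to 22.1. The Src-family kinases Fyn and Lyn had 6 sites each (5.71 to 20.2 and 4.99 to 11.9), and Syk, the kinase downstream of immune receptors, had 3 up to 11.7. Prkca, with 390.5 kb, had none. Blood transcription factors had 79 sites in 23 of 43 genes, 11.0 per Mb (8.73 to 13.7) and 2.89 times the length-matched count. Etv6, an ETS repressor lost or fused in leukaemia, had 9 sites between 13 and 212 kb from its 5′ end, of which the one at 80 kb scored 21.6. Nfatc2 had 5 up to 20.98, Bach2, a repressor of B cell differentiation, 9 (9.57 to 18.8), and Mef2c 7 up to 17.5. Runx1, a frequent target of leukaemia mutations, had 2, of 12.0 and 12.5. Rora, with 715 kb, had none.

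Endosome, lysosome and phagocytosis genes had 30 sites in 15 of 34 genes, 7.53 per Mb (5.08 to 10.7) and 1.71 times the length-matched count. Snx29, a sorting nexin gene, reached 22.1 and Lipa, lysosomal acid lipase, 21.6, while Gulp1 (225 kb) had none. Chromatin regulators and genes often mutated in acute myeloid leukaemia had 39 sites in 20 of 45 genes. That was 6.73 per Mb (4.79 to 9.20) and 1.41 times the length-matched count (0.999 to 1.92). Chd9, a remodeller gene, and Mllt3, a fusion partner of KMT2A, each reached 21.6 and Arid1b, a subunit of the BAF remodeller, 17.9. Tet2 and Dnmt3a had 1 site each, of 6.00 and 6.98, and Kmt2c (207 kb) had none. B and T cell genes had 12 sites in 7 of 28 genes, 7.50 per Mb (3.88 to 13.1) and 1.33 times (0.688 to 2.33). Prkcq, protein kinase C theta, reached 17.7, Tox 13.98 and Satb1 13.6, while Skap1 (275 kb) had none. Erythroid, megakaryocyte and mast cell genes had 8 sites in 5 of 20 genes. Their density was 4.66 per Mb (2.01 to 9.19), 1.01 times the length-matched count (0.438 to 2.00). Of these 8, Vwf, the von Willebrand factor gene, had 4, up to 24.3, and Ank1 (156 kb) had none.

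The lowest densities were in lists of other tissues. Long neuronal genes had 23 sites in 15 of 50 genes, 0.399 per Mb (0.253 to 0.598) and 0.265 times the length-matched count. Their median interior was 1101 kb, while the longest length class pooled all 199 genes with over 500 kb, 168 Mb of interior. The length match is therefore coarse for this list, which has 57.7 Mb of interior and whose longest genes are part of that class. A few sites there scored high, as in Macrod2 (24.6), Nrxn3, a neurexin gene (22.4), and Asic2, an ion channel gene (21.6). Long muscle, liver and epithelial genes had 14 sites in 9 of 43 genes, 1.38 per Mb (0.752 to 2.31) and 0.410 times the length-matched count. Neb, the muscle protein nebulin, reached 22.3, and Ptprt (1119 kb) had none. The ratios describe lists chosen with results known, and no difference between lists was tested.

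**Figure D5:**
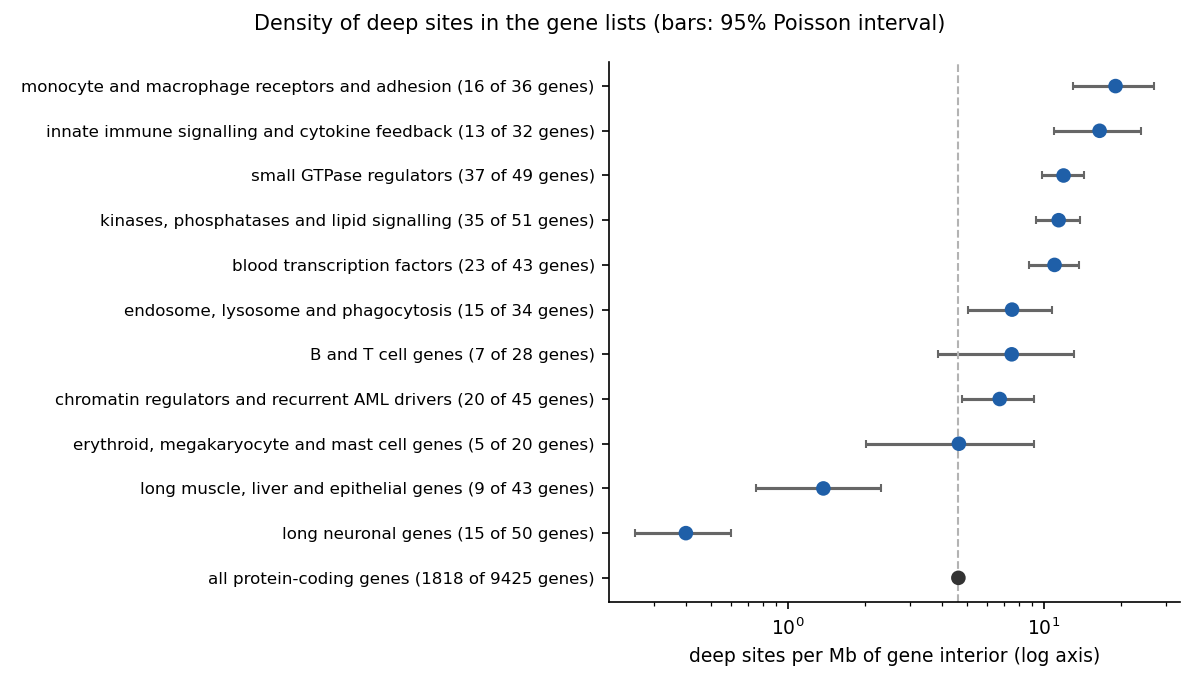
Deep sites per Mb of eligible gene interior for each gene list, with exact Poisson 95% intervals, and all protein-coding genes for comparison. Monocyte and macrophage receptors stand highest at 19.1 per Mb and long neuronal genes lowest at 0.399, with all genes at 4.64.

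Some deep sites lay at starts inside the host. The transcript start table did not cover chromosome 18, whose 113 deep sites are left out here. Of the 3146 deep sites on the chromosomes of that table, 95 were within 1 kb of a RefSeq transcript start, 3.02% (2.48% to 3.68%). These stretches make up 0.826% of the interior, and held 16.98 sites per Mb (13.7 to 20.8), against 4.54 per Mb elsewhere. In 60 cases the start belonged to a host gene and in 35 only to another gene. Sites at a host's own inner start included those of Galnt9 (31.8), Pik3cd (20.4), Fgd4 (15.3), Arhgap27 (14.3), Cd36 (14.2), Sema4d (13.7) and Nlrp1b (13.4), several of which are among the sequences printed above. In Syk the site of 11.7 lay 3 bases from such a start, and in Lima1 the site of 14.8 did likewise.

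A site in 2 overlapping genes was counted for both, which applied to 26 sites and gives 3285 pairs of site and host. Arhgap26 shared 5 with Gm5820 and Dock2 shared 3 with Insyn2b. Tg shared 4 with Sla, a gene of the Src-like adaptor of lymphocytes and myeloid cells that lies within it, and those scored 6.90, 7.21, 8.35 and 19.1. The position of a site cannot tell which of such genes it concerns. Of the hosts, 166 of 1818, 9.13% (7.89% to 10.5%), had a site within 1 kb of an own end, against 500 of the 7607 eligible genes without a deep site, 6.57% (6.04% to 7.15%). Within 10 kb of either end 1131 hosts, 62.2%, had no site, against 5789 of the eligible genes without a deep site, 76.1%. These differences were not tested.

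A deep site lay within 10 kb of a microRNA gene in 27 cases, for 27 of the 1136 microRNA genes on these chromosomes. Of these 27 genes, 25 were matched to a RefSeq mature sequence. The same share for all sites of the list is not given here. Whether deep sites lie near microRNA genes more or less often than other sites is therefore not known, and the cases are listed by position alone. MicroRNAs are short RNAs that lower the output of messenger RNAs matching their seed, bases 2 to 8, shown in capitals. The hosts with the highest such scores were Pik3cd, which contains Mir7023 6.77 kb from a site of 20.4, and Foxp1, which contains Gm51278 (miR-12201) 2.58 kb from its site of 20.2. Mir342, in the actin regulator gene Evl, lay 1.10 kb from a site of 8.98 and is shown as a microRNA linked to PU.1 in myeloid cells.
miR-7023-3p: uCACCCUGucugcgccccucag
miR-12201-5p: uGGAAGGAugccucuugcaga
miR-12201-3p: uCUGCAGAggcuuccuuggcu
miR-342-5p: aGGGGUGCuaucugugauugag
miR-342-3p: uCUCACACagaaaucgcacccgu
The 5 mature sequences share no seed. Mir6539 in Dock5 contained the summit of a site of 18.5, which lay 0.048 kb from the nearer end of this microRNA gene. Mir3473f in Bcl2, which encodes an inhibitor of cell death, lay 2.62 kb from a site of 18.0. Mir15b and Mir16-2, in Smc4, were near a site of only 1.44.

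Among chromosomes, density of deep sites ran between 3.66 per Mb on chromosome 8 and 6.42 per Mb on chromosome 19, with 6.02 on chromosome 17.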

How the data were processed

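PU.1 ChIP-seq summits of PU.1 high (2 days Dox, 3 libraries) against PU.1 low (2 libraries) AML-246 cells were used. Each summit carries the authors' −log10 score, as deposited; CASAVA 1.8.2, MACS2 and mm10 are named per the submitters' processing notes, and the aligner, filters, caller settings, pooling of technical replicates and the kind of score (p or q) were not given in the sources used here. Depth is unknown. Positions were set against RefSeq gene spans of GRCm38.p6. Python 3.11.15, numpy 2.4.6, pandas 2.3.3 and scipy 1.17.1 were used; the interval code was tested on simulated data. Of 502 list entries, 499 matched, and the other 3 lie on chromosome X.

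The members and lists were chosen with earlier results of these data known. Named genes are the hosts of the 10 highest scores, the 10 with the most sites, the 5 densest, 3 per list by score with the longest list gene lacking a site, the sites at the limit, the longest host and the 2 longest genes without a site, and up to 8 microRNA genes. Other genes, the motif GGAAGT, the comparisons by transcript start and direction, the length-matched counts, the windows printed and Mir342 were chosen after their values were seen. Alternatives moved the distance limit, the score, gene biotypes, chromosomes, the joining of close summits and the choice of host. A few of the genes that the rule takes are not reported here.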

Additional observations from a re-analysis of the deposited data

Results flagged for a closer look

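Chromosome X is outside the comparisons above, yet 63 of its 186 sites were deep by the same definition, in 42 host genes. Their density was 1.89 per Mb (1.45 to 2.42) with a median score of 8.36. Cybb, which encodes a subunit of the phagocyte NADPH oxidase, had 4 sites up to 13.1, and Arhgap6 had 4 up to 12.1. The sites of chromosome X are given because they were used in no comparison above. Their density was below the 4.64 per Mb of the deep sites described above, a difference that was not tested.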

How the results depend on the processing

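Of 152 recomputed values, 119 stayed within the limits set and 33 moved. The limits set were wide for counts. The 4052 deep sites at a distance limit of 5 kb and the 2326 at 20 kb, against 3259, counted as within them. Keeping only scores of at least 10 left 1250 deep sites in 900 hosts, 76 hosts with 3 or more, a median score of 13.2, a density of 1.78 per Mb and 16% of deep sites within 10 kb of another. Under it the lists had 10.7 (monocyte and macrophage receptors), 5.45 (blood transcription factors), 5.32 (innate signalling), 4.83 (GTPase regulators), 4.40 (kinases), 3.13 (B and T cell), 2.33 (erythroid, megakaryocyte and mast cell), 2.76 (endosome), 2.76 (chromatin), 0.491 (muscle, liver and epithelial) and 0.225 (neuronal) sites per Mb. Density was 4.97 at a limit of 5 kb, 4.18 at 20 kb and 4.39 with ends of all gene biotypes, and joining summits within 500 bases gave a share of 28.2% within 10 kb of another. Arhgap26 had 8 sites at 20 kb and 9 when each site went to its shortest host, where Foxp1 had 12, and Tg had 5 and 6. In all 8 settings the monocyte and macrophage list was highest and the neuronal list lowest. No paired analysis was possible because the list holds no values per library, and no replicate could be left out for the same reason.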

Other observations

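Some deep sites came in runs. Of the 3259 sites, 981 (30.1%, 28.6% to 31.7%) lay within 10 kb of another deep site and 213 (6.54%) within 1 kb. Any other site of the list lay within 10 kb of 1058 deep sites (32.5%), beside 33.4% for all sites, so such neighbours are about as common here as in the list as a whole. There were 26 runs of 4 or more sites with gaps of at most 10 kb. Dner, which encodes a Notch-related transmembrane protein, held the longest, 7 sites in 37.9 kb (6.57 to 18.5). Prkch, a protein kinase C gene, held 5 in 7.47 kb, Rad51b, a DNA repair gene, 5 in 17.0 kb, Iqgap1, a cytoskeletal scaffold gene, 5 in 22.3 kb, and Cmip 5 in 23.2 kb.

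Among runs of 4, Rin3 had its sites in 2.81 kb and Itpkb, an inositol trisphosphate kinase gene, in 3.16 kb with a top score of 26.9. Map4k4 had 4 in 8.68 kb (top 22.6), Nfkb1, a subunit gene of NF-κB, in 9.62 kb, Aim2, a sensor of cytosolic DNA, in 11.2 kb, Hip1 in 15.9 kb (top 21.8) and Fli1, an ETS factor gene, in 22.0 kb.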
